A study of Homo sapiens with 4 samples.

Results

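RNA-seq counts of 9 replication-independent histone variant genes were compared between LNCaP cells treated with R1881 + vehicle and with R1881 + CPI-455. The genes are the H2A.Z genes H2AZ1 and H2AZ2, the H3.3 genes H3-3A and H3-3B, the macroH2A genes MACROH2A1 and MACROH2A2, the H2A variant genes H2AX and H2AJ, and the linker histone gene H1-10. They were taken by symbol from 60675 annotated genes, and all 9 were found and passed the filter on low counts that left 17600 genes for testing. LNCaP is an androgen-responsive prostate cancer cell line derived from a lymph node metastasis, so every library comes from 1 line. All 4 cultures were kept for 72 h with 1 nM R1881, a synthetic androgen, and differ in whether they received DMSO vehicle (n = 2) or 50 µM CPI-455, an inhibitor of the KDM5 family of H3K4 demethylases (n = 2). Cells without androgen were not analysed here, so the comparison is between androgen-treated cells with and without the inhibitor.

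Most histone mRNA is made only while DNA is copied, from clustered genes whose transcripts end in a stem-loop and have no poly(A) tail. The replication-independent genes lie apart from these clusters, mostly carry introns and poly(A) signals, and are transcribed throughout the cell cycle, so that their proteins can replace the canonical histones outside S-phase. Their products are placed by dedicated chaperones and exchange complexes and mark particular chromatin: H2A.Z at promoters and enhancers, H3.3 in transcribed genes and at telomeres, macroH2A in repressed chromatin, and phosphorylated H2AX at DNA breaks.

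The vehicle libraries held 19623553 and 20690819 counted fragments and the CPI-455 libraries 9522920 and 5401588, so that 3 fragments stand for 0.137 to 0.142 and for 0.337 to 0.595 TMM-normalised CPM (counts scaled to a common library size). The members held between 35 and 9515 fragments in a library, well above this limit. The comparison moved a large part of the transcriptome. A gene is said to have risen or fallen with CPI-455 when edgeR's quasi-likelihood test gave an FDR below 0.05, and is called when the change was also at least 2-fold. By the second rule 21.0% of the tested genes were called higher and 21.3% called lower, 42.4% in all, and by the first rule 29.8% rose and 32.8% fell. Log2 fold changes are CPI-455 minus vehicle, so that a positive value is a gene with more RNA in the inhibitor-treated cells. In bulk RNA, fewer cells of a type and less RNA per cell cannot be told apart.

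Of the 9 genes, 1 was called higher (H2AZ1) and 1 called lower (MACROH2A1). A further 1 rose by less than 2-fold (H3-3B), 4 fell by less than 2-fold (H2AZ2, MACROH2A2, H2AX and H2AJ), and 2 did not pass the test (H3-3A and H1-10). The 2 called genes of 9 stand beside 42.4% of all tested genes, and the 7 of 9 past the FDR threshold beside 62.6%. The median log2 fold change of the 9 genes was -0.47, against -0.04 over all tested genes and -0.21 over the 13813 tested protein-coding genes. In 8 of the 9 the values of both groups did not overlap, beside 81.9% of all tested genes. The H2A.Z pair held 1 gene that rose and 1 that fell, the H3.3 pair held 1 that rose and 1 that did not pass the test, and both macroH2A genes fell.

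**Figure D1:**
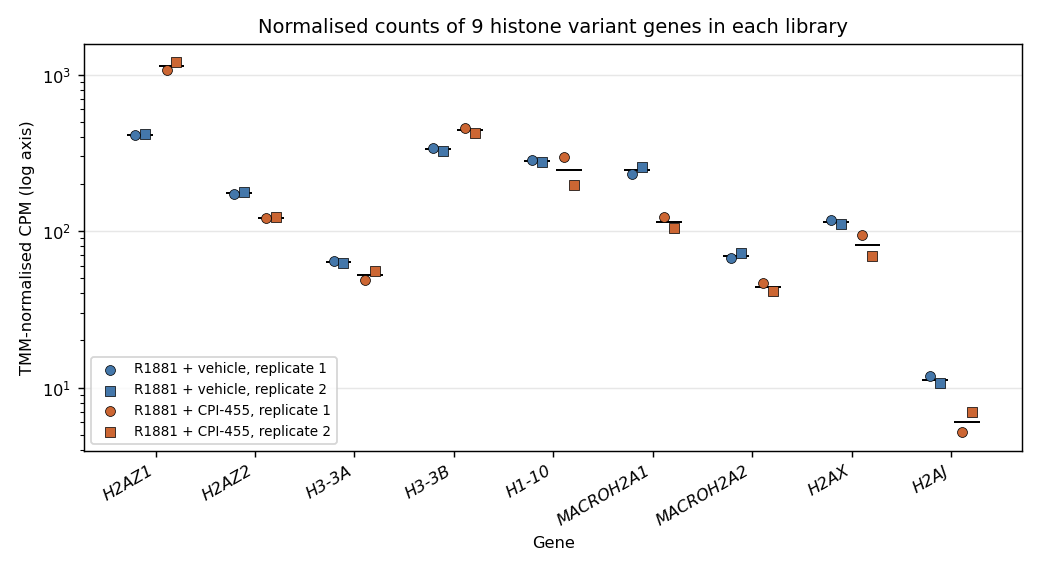
TMM-normalised CPM of the 9 genes (log axis) in the 2 vehicle libraries (blue) and the 2 CPI-455 libraries (orange), with circles for replicate 1, squares for replicate 2 and black lines for group means. H2AZ1 goes from 409 and 414 to 1070 and 1194 CPM, the macroH2A genes go down, and H1-10 is the gene whose groups overlap.

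H2A.Z replaces H2A in the nucleosomes that flank transcription start sites and is encoded by a pair of genes whose proteins are almost the same. H2AZ1 (ENSG00000164032) lies on the minus strand of chromosome 4 from 99948086 to 99950388 (GRCh38). It had 409 and 414 CPM in the vehicle libraries and 1070 and 1194 CPM in the CPI-455 libraries. Both inhibitor libraries were far above both vehicle libraries, a rise of 2.75-fold (log2 fold change 1.46, SE 0.11, 95% interval 1.22 to 1.70, FDR = 4.645e-06 in edgeR's quasi-likelihood test). This change was above that of 83.3% of the tested genes. The vehicle libraries held 8637 and 9051 fragments of H2AZ1 and the shallower CPI-455 libraries 9515 and 6020. The annotated exons of H2AZ1 form 1 block of 2303 bases over the whole gene, while its canonical transcript has 5 exons and 866 bases. Fragments from the introns of that transcript were therefore counted, and the part of unspliced RNA in the rise was not tested.

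H2AZ2 (ENSG00000105968), on the minus strand of chromosome 7 from 44826791 to 44848083, went the other way. Its levels were 173 and 177 CPM with vehicle and 120 and 123 CPM with CPI-455. The groups did not overlap and the gene fell by 0.52 on the log2 scale (SE 0.11, FDR = 0.00248 in edgeR's quasi-likelihood test), a 1.44-fold change that is under the 2-fold threshold. The fall was smaller once the trend with GC content and exon length had been removed from each library, at a log2 fold change of -0.17 (FDR = 0.159, within 1.370e-05 to 0.212 over 14 alternatives).

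The sum of the H2A.Z genes rose from 587 ± 6.51 to 1254 ± 89.5 CPM (SD, n = 2), a ratio of 2.14, since H2AZ1 holds most of the counts of the pair. Within the pair, counts divided by exon length put the share of H2AZ1 at 82.9% and 82.8% in the vehicle libraries and at 94.8% and 95.2% in the CPI-455 libraries. The difference of 12.1 percentage points was larger than the spread between replicates, and the exact permutation test gave p = 0.333 (two-sided), the smallest value that 2 libraries against 2 can give. It was 20.1 points on raw counts and 7.87 on the lengths of the canonical transcripts. The coding sequences of H2AZ1 and H2AZ2 match at 309 of 384 bases (80.5%) with no identical run longer than 23 bases, and 3.28% and 5.30% of the 50-base words in their exons occur elsewhere in the genome. The 8 annotated H2A.Z pseudogenes took few fragments, and the highest, H2AZ2P1, held 5 and 1 in the vehicle libraries and 18 and 0 in the others.

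The promoters of the pair are printed because the genes moved in opposite directions. Each is the 250 bases before the start in RefSeq's promoter table (GRCh38.p14), on the gene's own strand, with capitals for CCAAT (the CCAAT box, ATTGG on the other strand), TATAAA (the TATA box) and GGGCGG (the GC box, CCGCCC on the other strand). The H2AZ1 window is chr4:99950276-99950525 and the H2AZ2 window chr7:44848088-44848337, both on the minus strand.
H2AZ1: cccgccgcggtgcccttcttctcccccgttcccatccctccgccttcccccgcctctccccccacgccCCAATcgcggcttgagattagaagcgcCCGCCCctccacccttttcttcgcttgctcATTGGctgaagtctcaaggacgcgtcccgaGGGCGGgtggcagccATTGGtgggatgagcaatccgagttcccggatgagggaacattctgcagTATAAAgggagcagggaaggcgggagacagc
H2AZ2: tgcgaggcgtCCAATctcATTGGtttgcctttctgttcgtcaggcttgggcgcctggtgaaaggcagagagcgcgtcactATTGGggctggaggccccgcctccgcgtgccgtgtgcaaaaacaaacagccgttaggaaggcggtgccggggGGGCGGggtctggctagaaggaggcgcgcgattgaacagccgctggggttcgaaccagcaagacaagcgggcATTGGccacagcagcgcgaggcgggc
H2AZ1 held 3 CCAAT, 1 TATAAA and 2 GGGCGG, and H2AZ2 held 4 CCAAT, no TATAAA and 1 GGGCGG. Over the 35116 windows of this length in the table, 32.0% held a CCAAT, 9.53% held 2 or more, 10.7% held a TATAAA and 42.6% a GGGCGG, counting both strands and letting matches overlap. These are matches of letters and were not tested as binding sites.

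H3.3 differs from the replication-coupled H3 proteins at a few residues and is laid down throughout the cell cycle. H3-3A and H3-3B encode the same protein from different mRNAs. H3-3B (ENSG00000132475), on the minus strand of chromosome 17 from 75776434 to 75785893, held more of the counted fragments than H3-3A. It had 340 and 326 CPM with vehicle and 453 and 426 CPM with CPI-455. Its annotated exons form 2 blocks of 6134 bases in all, while its canonical transcript has 4 exons and 2705 bases, so intron fragments could be counted here too. Both inhibitor libraries were above both vehicle libraries, and the gene rose 1.32-fold (log2 fold change 0.40, SE 0.10, 95% interval 0.16 to 0.64, FDR = 0.00827 in edgeR's quasi-likelihood test). The rise did not pass the test with no filter or when library totals alone were used for scaling (log2 fold change 0.21, FDR = 0.0999, within 4.049e-10 to 0.103 over 14 alternatives), and it did not pass without replicate 2 of the vehicle group (log2 fold change 0.38, FDR = 0.103).

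H3-3A (ENSG00000163041), on the plus strand of chromosome 1 from 226061851 to 226072001, had 64.4 and 62.5 CPM with vehicle and 48.7 and 55.7 CPM with CPI-455. The inhibitor libraries were the lower pair, but the change did not pass the test (log2 fold change -0.29, SE 0.14, 95% interval -0.60 to 0.02, FDR = 0.0939 in edgeR's quasi-likelihood test). It passed without replicate 2 of the CPI-455 group (log2 fold change -0.38, FDR = 0.00525, within 0.00525 to 0.695 over 14 alternatives), with library totals and with no filter on low counts. The log2 fold change was -0.11 with upper-quartile normalisation and -0.08 with the length and GC trend removed.

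The H3.3 genes together had 396 ± 11.6 CPM with vehicle and 492 ± 14.5 CPM with CPI-455 (SD, n = 2), a ratio of 1.24. H3-3B took 73.0% and 72.8% of the length-scaled counts of the pair in the vehicle libraries and 82.7% and 79.7% in the CPI-455 libraries. The means of 72.9% ± 0.171 and 81.2% ± 2.13 (SD, n = 2) differed by 8.27 percentage points with no overlap (exact permutation test, two-sided, p = 0.333, the smallest it can give).

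**Figure D2:**
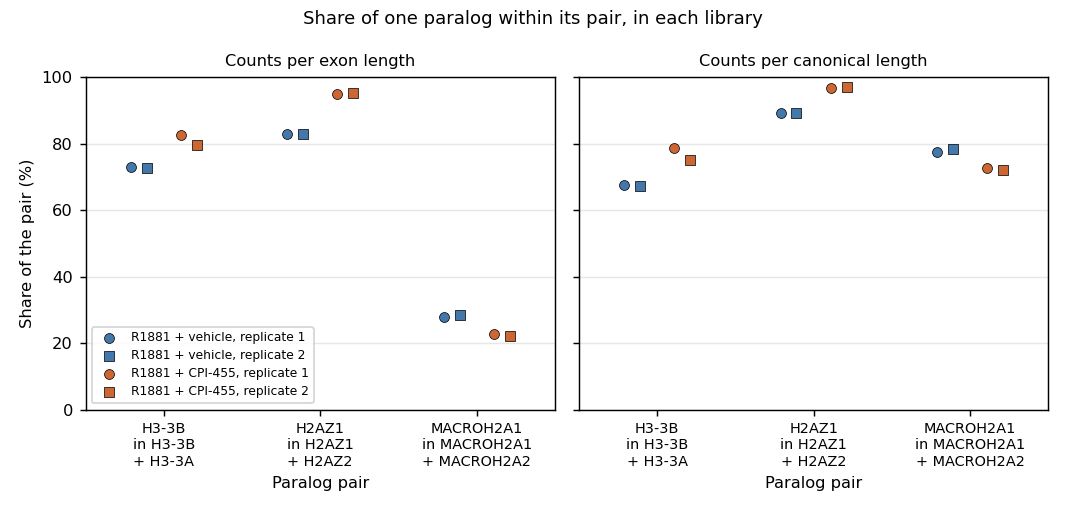
Share of 1 gene within its paralog pair (percent) in each library, with counts divided by the length of all annotated exons (left) and by the length of the canonical transcript (right), vehicle in blue and CPI-455 in orange. The shares of H3-3B and H2AZ1 are higher in both CPI-455 libraries and that of MACROH2A1 is lower, on both lengths.

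The first 90 coding bases of the H3.3 genes (of GENCODE release 44, from the A of the start codon) show how fragments of genes with the same protein can be told apart. Capitals in H3-3B mark its 21 differences from H3-3A.
H3-3A: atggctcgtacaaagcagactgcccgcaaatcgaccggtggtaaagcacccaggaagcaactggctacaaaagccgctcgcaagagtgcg
H3-3B: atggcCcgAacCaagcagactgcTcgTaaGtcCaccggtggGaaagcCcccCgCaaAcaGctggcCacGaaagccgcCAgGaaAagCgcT
Over the whole coding sequence the genes match at 320 of 408 bases (78.4%), and the longest identical run is 14 bases. A processed copy, H3P6, matches H3-3A at all 408 coding bases, so a fragment inside the coding sequence can match both places, and such fragments were not counted. H3P6 itself was given 299 and 316 fragments with vehicle and 96 and 78 with CPI-455 and did not pass the test (log2 fold change -0.15, FDR = 0.619 in edgeR's quasi-likelihood test). Of the 50-base words in the exons of H3-3A 28.1% occur elsewhere in the genome, the highest share of the 9, against 5.22% for H3-3B. The counts of H3-3A leave out fragments that match elsewhere, so its level, its share of the pair and its place among the genes are uncertain. How far the shares lean to H3-3B for this reason was not tested. Only 4 of the 47 annotated H3 pseudogenes held 10 or more fragments in any library.

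The promoter windows of the H3.3 genes, marked as above, are chr1:226062466-226062715 on the plus strand for H3-3A and chr17:75779780-75780029 on the minus strand for H3-3B. RefSeq gives 4 windows for H3-3A, and the one printed is at the start of the canonical transcript. The annotated exons of both genes also reach upstream of these windows, so other starts may exist.
H3-3A: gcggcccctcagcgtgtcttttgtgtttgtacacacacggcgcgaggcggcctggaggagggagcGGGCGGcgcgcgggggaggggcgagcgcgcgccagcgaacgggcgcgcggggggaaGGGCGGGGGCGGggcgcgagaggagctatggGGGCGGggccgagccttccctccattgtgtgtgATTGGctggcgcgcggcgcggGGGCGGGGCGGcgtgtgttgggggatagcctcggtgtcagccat
H3-3B: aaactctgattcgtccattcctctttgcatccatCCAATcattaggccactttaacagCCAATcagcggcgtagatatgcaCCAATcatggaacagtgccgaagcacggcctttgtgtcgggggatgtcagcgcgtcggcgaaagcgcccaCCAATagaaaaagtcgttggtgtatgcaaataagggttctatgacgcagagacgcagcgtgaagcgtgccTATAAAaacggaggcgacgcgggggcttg
H3-3A held 1 CCAAT, no TATAAA and 6 GGGCGG, in part overlapping, while H3-3B held 4 CCAAT, 1 TATAAA and no GGGCGG. H2AZ1 and H3-3B, the members that rose, each held 3 or 4 CCAAT and a TATAAA. Of the members that fell, H2AX held 4 CCAAT and a TATAAA, and H2AZ2 and H2AJ held 4 and 3 CCAAT without a TATAAA. The macroH2A genes, which also fell, held neither motif. H1-10, which did not pass the test, held a TATAAA and no CCAAT. Motif counts were not tested against the direction of change.

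MacroH2A carries a large non-histone domain and is enriched on the inactive X chromosome and on silenced genes. MACROH2A1 (ENSG00000113648) lies on the minus strand of chromosome 5 from 135333900 to 135399914. It had 232 and 257 CPM with vehicle and 123 and 105 CPM with CPI-455. The groups were well apart and the gene was called lower, by 2.14-fold (log2 fold change -1.10, SE 0.13, 95% interval -1.38 to -0.81, FDR = 5.939e-05 in edgeR's quasi-likelihood test). It passed the FDR threshold under all 14 alternatives, but was within 2-fold under 4 of them, among them upper-quartile normalisation (log2 fold change -0.92) and the fit without replicate 2 of the CPI-455 group (-0.99).

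MACROH2A2 (ENSG00000099284), on the plus strand of chromosome 10 from 70052796 to 70112280, fell less. It had 67.4 and 71.9 CPM with vehicle and 46.4 and 41.2 CPM with CPI-455, with no overlap. The log2 fold change was -0.66 (SE 0.14, FDR = 0.00242 in edgeR's quasi-likelihood test), a 1.58-fold fall. With the length and GC trend removed it was -0.95, against -0.92 for MACROH2A1, so which of the genes fell more depended on this setting. Without replicate 2 of the vehicle group the FDR was 0.0542, the highest of the 14 alternatives, which ranged down to 7.151e-09.

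The sum of the macroH2A genes went from 314 ± 20.7 to 158 ± 16.1 CPM (SD, n = 2), a ratio of 0.502. The share of MACROH2A1 within the pair went from 28.1% ± 0.538 to 22.5% ± 0.444 of the counts per exon length (SD, n = 2), a difference of -5.66 percentage points (exact permutation test, two-sided, p = 0.333, the smallest it can give). The difference was 0.352 points, of the opposite sign, with the length and GC trend removed. The annotated exons of MACROH2A1 add up to 17730 bases and its canonical transcript has 1917, and on the canonical lengths the shares were 77.9% and 72.3%, so which of the genes is the more abundant depends on the length used. Its exons also share 4968 bases with PITX1-AS1 on the other strand, which held 43 and 35 fragments with vehicle and 24 and 21 with CPI-455. Fragments that overlapped both genes were left out of the counts, while the shared bases stayed in the exon length. How far this affects the level of MACROH2A1 per exon length and its share was not tested.

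H2AX and H2AJ are single H2A variant genes. H2AX carries the serine that the damage kinases phosphorylate at DNA breaks, and its gene gives both a stem-loop and a polyadenylated mRNA. H2AX (ENSG00000188486), on the minus strand of chromosome 11 from 119093854 to 119095467, had 117 and 111 CPM with vehicle and 94.7 and 69.0 CPM with CPI-455. Both inhibitor libraries were lower, replicate 2 clearly more so, and the log2 fold change was -0.47 (SE 0.15, 95% interval -0.81 to -0.12, FDR = 0.0248 in edgeR's quasi-likelihood test). The log2 fold change was -0.97 with the length and GC trend removed, -0.72 without replicate 1 of the CPI-455 group and -0.27 without its replicate 2. H2AX did not pass the test without replicate 1 of the vehicle group (FDR = 0.131, the highest of 14 alternatives, the lowest being 5.590e-13) or its replicate 2 (FDR = 0.0650), or with upper-quartile normalisation (FDR = 0.121).

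H2AJ (ENSG00000246705), on the plus strand of chromosome 12 from 14774383 to 14778002, encodes an H2A variant that accumulates in senescent cells. It is the lowest of the 9, with 11.8 and 10.6 CPM with vehicle and 5.17 and 6.94 CPM with CPI-455, the latter from 46 and 35 fragments. It fell by 0.92 on the log2 scale (SE 0.28, 95% interval -1.55 to -0.29, FDR = 0.0174 in edgeR's quasi-likelihood test), with the widest interval of the 9. Its 2-fold call depended on the settings. It was called under 3 of the 14 alternatives, among them library totals alone (log2 fold change -1.11). It did not pass the test with DESeq2 (FDR = 0.0677). The same held for edgeR's quasi-likelihood test with the length and GC trend removed and a replicate block (FDR = 0.0649). Nor did it pass without replicate 1 or replicate 2 of the vehicle group, where the log2 fold change was -0.80 and -0.96.

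H1-10, the gene of the linker histone H1.10 (H1x), binds the DNA that enters and leaves the nucleosome. H1-10 (ENSG00000184897) is a single exon on the minus strand of chromosome 3 from 129314771 to 129316277. It had 284 and 278 CPM with vehicle and 295 and 197 CPM with CPI-455. The inhibitor libraries lay on both sides of the vehicle libraries, and no difference was detectable (log2 fold change -0.18, SE 0.17, 95% interval -0.57 to 0.20, FDR = 0.366 in edgeR's quasi-likelihood test). The sign rested on 1 library, since the log2 fold change was 0.07 without replicate 2 of the CPI-455 group and -0.51 without its replicate 1. With the length and GC trend removed H1-10 passed the test (log2 fold change -0.61, FDR = 0.00113, within 2.841e-08 to 0.962 over 14 alternatives). Its exons, of which 68.6% of the bases are G or C, share 345 bases with the antisense gene H1-10-AS1. That gene held 45 and 60 fragments with vehicle and 174 and 74 with CPI-455 and was called higher (log2 fold change 2.82, FDR = 4.090e-05 in edgeR's quasi-likelihood test). Strand was not used in the counting, so fragments that overlapped both genes were left out and the others went to the gene they overlapped whatever their strand.

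**Figure D3:**
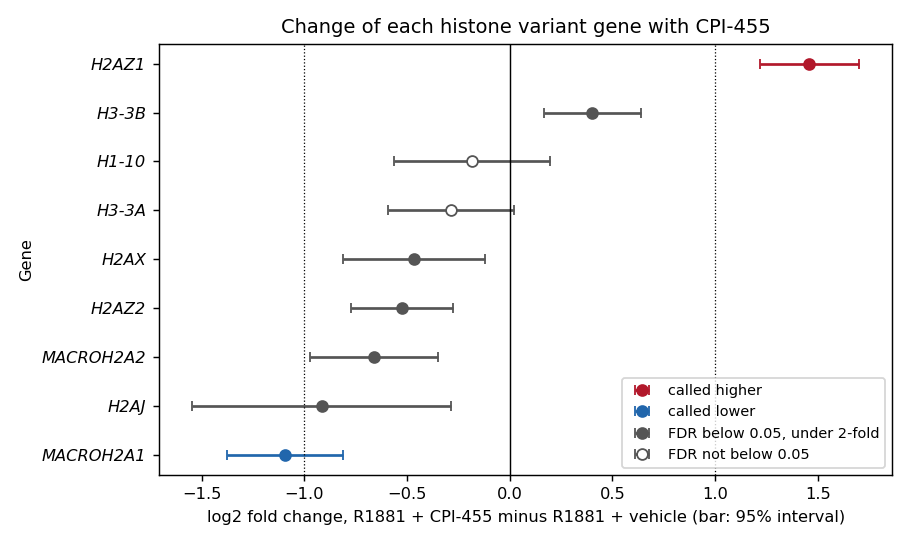
Log2 fold change of each of the 9 genes (CPI-455 minus vehicle, points) with its 95% interval (bars), and dotted lines at 2-fold. H2AZ1 (1.46) and MACROH2A1 (-1.10) are past 2-fold, and the intervals of H1-10 and H3-3A cross 0.

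Levels between genes are given as FPKM, the TMM-normalised CPM divided by the kilobases of annotated exon. In the vehicle libraries H1-10 (184 to 188 FPKM) stood just above H2AZ1 (178 to 180), followed by H2AX (68.7 to 72.5), H3-3B (53.1 to 55.4), H2AZ2 (36.5 to 37.3), MACROH2A2 (34.0 to 36.3), H3-3A (19.9 to 20.5), MACROH2A1 (13.1 to 14.5) and H2AJ (3.17 to 3.53). With CPI-455 H2AZ1 stood first (465 to 518 FPKM), above H1-10 (131 to 196), and H3-3B (69.4 to 73.9) stood above H2AX (42.8 to 58.7), while the order of the other 5 was the same. No neighbours overlapped in either group on this scale. On the length of the canonical transcript H2AZ1 was first in both groups (472 to 479 FPKM with vehicle), MACROH2A1 (121 to 134) overlapped with H3-3B (120 to 126) in the vehicle libraries, and H3-3A overlapped with H2AZ2, so the order, its top included, rests on the length used.

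Together the 9 genes had 1699 and 1708 CPM with vehicle and 2257 and 2218 CPM with CPI-455, a ratio of 1.31. H2AZ1 alone made up 24.2% ± 0.142 of these counts with vehicle and 50.6% ± 4.53 with CPI-455 (SD, n = 2). MACROH2A1 went from 14.3% ± 0.979 to 5.09% ± 0.493, H1-10 from 16.5% ± 0.314 to 11.0% ± 2.97 and H2AZ2 from 10.3% ± 0.116 to 5.45% ± 0.159. The part of H3-3B was 19.5% ± 0.672 with vehicle and 19.6% ± 0.630 with CPI-455, its own rise being close to that of the sum.

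Of the other replication-independent histone genes, CENPA, the H3 variant of centromeres, rose. It had 13.5 and 16.8 CPM with vehicle and 24.0 and 33.1 CPM with CPI-455 (log2 fold change 0.90, FDR = 0.00603 in edgeR's quasi-likelihood test). H3-5, a further H3.3-like gene, held at most 2 fragments in a library and was not tested. The 65 replication-dependent histone genes, of which 23 passed the filter on low counts, some of them through the CPI-455 libraries alone, summed to 114 and 91.4 CPM with vehicle and 834 and 904 CPM with CPI-455. Of the 23 tested, 14 were called higher and 3 lower, beside 21.0% and 21.3% of all tested genes, and 5 did not pass the test. The one with the lowest FDR, H2BC21, went from 10.6 and 8.38 CPM to 338 and 391 CPM, and H2BC26, H2BC18 and H2BC11, also H2B genes, had log2 fold changes of 4.74, 4.84 and 4.33. Another H2B gene, H2BC15, was called lower (log2 fold change -1.39). The mRNAs of replication-dependent histone genes mostly lack a poly(A) tail, and how the RNA of these libraries was selected is not given in the sources used here.

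Of 10 H3.3 chaperone genes, all tested, 7 fell and 2 rose, beside 32.8% and 29.8% of all tested genes, and 3 were called lower and 1 higher, beside 21.3% and 21.0%. The median of the log2 fold changes was -0.83. ASF1A, which hands H3.3 with H4 to the HIRA complex, had 38.8 and 41.2 CPM with vehicle and 10.3 and 6.94 CPM with CPI-455, a 4.49-fold fall (FDR = 2.464e-05 in edgeR's quasi-likelihood test). Its paralog ASF1B, tied to proliferating cells, fell 2.71-fold, and UBN1, a subunit of the HIRA complex, fell 2.09-fold from 192 and 193 to 97.3 and 86.5 CPM. ATRX, which with DAXX places H3.3 at telomeres and pericentric repeats, moved the other way, from 211 and 216 CPM to 637 and 860 CPM, a 3.50-fold rise (FDR = 7.868e-06 in edgeR's quasi-likelihood test). Both CPI-455 libraries of ATRX were above both vehicle libraries. DAXX itself fell (log2 fold change -0.38, FDR = 0.0177 in edgeR's quasi-likelihood test).

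Of 16 genes tied to H2A.Z exchange 5 rose and 5 fell, close to the 29.8% and 32.8% of all tested genes. Of these 16, 2 were called higher and 1 lower, beside 21.0% and 21.3% of all tested genes. The median log2 fold change was 0.06. KAT5, the acetyltransferase of the TIP60 complex, rose from 21.4 and 19.8 CPM to 39.6 and 51.8 CPM, and DMAP1, a subunit shared by the TIP60 and SRCAP complexes, rose 2.11-fold. PWWP2A, an H2A.Z-binding protein, fell from 46.9 and 51.5 to 22.3 and 23.8 CPM (FDR = 2.394e-04 in edgeR's quasi-likelihood test). SRCAP and EP400, the ATPases that insert H2A.Z, did not pass the test, with log2 fold changes of 0.35 and 0.05.

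Of 10 genes of H2AX signalling 7 fell and 1 rose, beside 32.8% and 29.8% of all tested genes, and 2 were called lower, beside 21.3%. The median of the log2 fold changes was -0.49. BAZ1B, the kinase that phosphorylates a tyrosine of H2AX, had 543 and 611 CPM with vehicle and 165 and 197 CPM with CPI-455 (log2 fold change -1.68, FDR = 5.682e-06 in edgeR's quasi-likelihood test). PRKDC, the catalytic subunit of DNA-PK, fell 2.41-fold, while ATM, the kinase best known for marking H2AX at breaks, rose by 0.68 on the log2 scale.

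Of 4 genes tied to macroH2A 2 were called lower, beside 21.3% of all tested genes. PARP1, which binds macroH2A1, had 609 and 649 CPM with vehicle and 303 and 262 CPM with CPI-455, a 2.23-fold fall, and QKI, an RNA-binding protein that acts on the splicing of MACROH2A1, fell 2.87-fold from 253 and 269 to 83.9 and 98.7 CPM. The files count whole genes, so the isoforms of MACROH2A1 were not measured. HELLS, a remodeller, rose by 0.68 on the log2 scale, and APLF did not pass the test. Of 6 general histone chaperones 4 rose and 2 fell, beside the same shares of 29.8% and 32.8%, and NPM1 was called higher, from 951 and 1074 CPM to 2077 and 2577 CPM. KDM5B, in the family that CPI-455 inhibits, had 122 and 120 CPM with vehicle and 57.7 and 57.3 CPM with CPI-455 and was called lower, whereas KDM5A rose 1.70-fold and KDM5C did not pass the test (log2 fold change 0.03, FDR = 0.829 in edgeR's quasi-likelihood test).

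**Figure D4:**
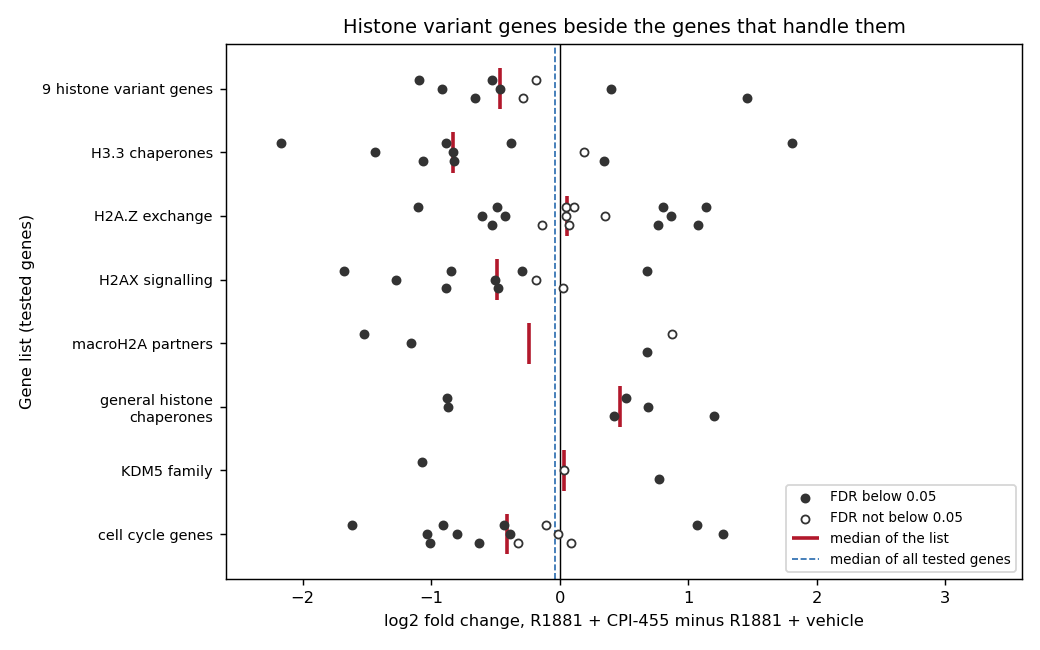
Log2 fold change (CPI-455 minus vehicle) of every tested gene of each list, filled where the FDR is below 0.05, with red lines for list medians and a dashed line for the median of all tested genes (-0.04). The 9 variant genes have a median of -0.47 and the H3.3 chaperones -0.83.

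Markers of the line and of the cell cycle moved with the treatment. The 9 LNCaP markers were all detected and summed to 957 and 883 CPM with vehicle and 383 and 438 CPM with CPI-455. Of these 8 fell and 1 rose, beside 32.8% and 29.8% of all tested genes. The gene that rose was KLK2 (log2 fold change 0.56). KLK3, which encodes PSA, fell 3.15-fold and FOLH1, which encodes PSMA, fell 5.98-fold. Of 8 markers of other cell types the basal keratin gene KRT5 was at 0 in all 4 libraries, and the others but VIM and COL1A1 held at most 15 fragments. VIM, a mesenchymal filament gene, went from 651 and 737 to 1337 and 1520 CPM, and COL1A1 from 4.97 and 4.03 to 10.1 and 7.73 CPM. Of 14 cell cycle genes 8 fell and 2 rose, beside 32.8% and 29.8% of all tested genes, with TYMS, for thymidylate synthesis, and MCM2, of the replicative helicase, called lower and CCNB1, the mitotic cyclin B1, and MCM5 called higher. The part of these shifts, and of the lower depth of the CPI-455 libraries, in the changes of the histone variant genes was not tested.

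For each variant gene the tested gene with the nearest profile was sought among 6585 others whose log2 CPM averaged 5 or more, by the Euclidean distance of centred log2 CPM over the 4 libraries. LSM3 was nearest to H2AZ1 (distance 0.0511, log2 fold change 1.45), the largest distance of the 9, and DPYSL4 to MACROH2A1 (0.0245). ILKAP was nearest to H3-3B, CCDC93 to H3-3A, GOLT1B to H2AZ2, ABI2 to MACROH2A2, CAPN15 to H2AX, MBOAT2 to H2AJ and RAB15 to H1-10, at distances of 0.0102 to 0.0383. With 4 libraries such a likeness is mainly the same difference between groups.

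**Figure D5:**
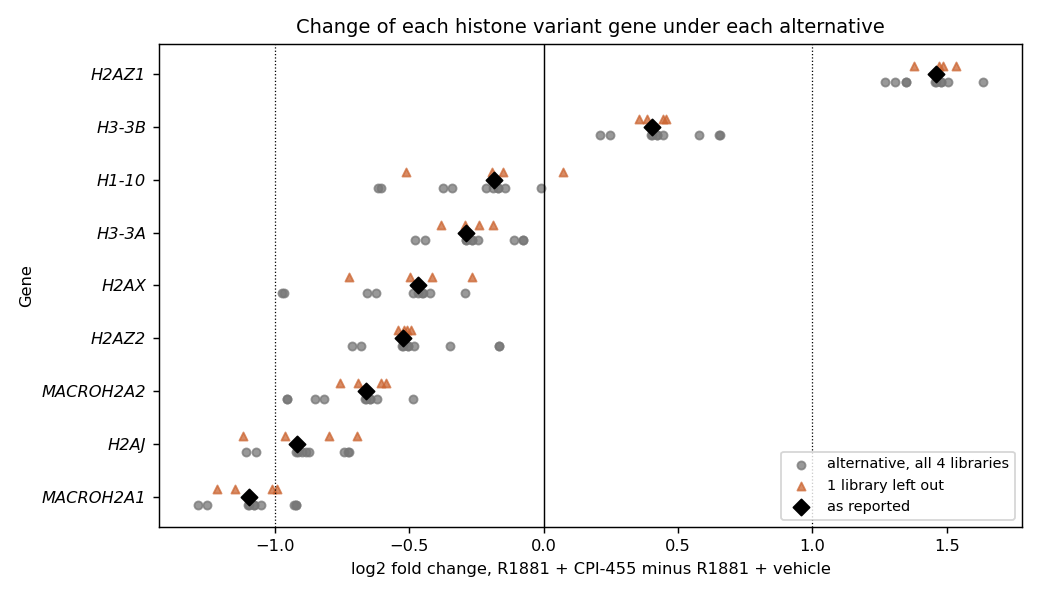
Log2 fold change (CPI-455 minus vehicle) of each of the 9 genes as reported (black diamonds), under 10 alternatives with all libraries (grey circles) and with 1 library left out (4 orange triangles). H2AZ1 stays between 1.27 and 1.64, MACROH2A1 between -1.29 and -0.92, and H1-10 reaches 0.07 without replicate 2 of the CPI-455 group.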

How the data were processed

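Poly(A) or other selection of the RNA and the strandedness of the libraries are not given in the sources used here. RNA was extracted from LNCaP cultures described as biological replicates, with nothing to show that they were grown apart, so p-values measure the spread between these 4 libraries. The authors trimmed reads with TrimGalore, aligned them to GRCh38 with STAR and deposited raw counts of fragments per gene, made with featureCounts 1.5.0-p1 on Ensembl release 83. Per the file headers strand was not used and fragments matching several places or genes were left out. Columns were mapped to groups by the sample labels.

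Symbols were matched for 56558 of 60675 genes. Counts were normalised with TMM (factors 1.08 and 1.06 with vehicle, 0.936 in both CPI-455 libraries), filtered by edgeR's filterByExpr (minimum count 10) and compared with glmQLFit and glmQLFTest of edgeR 4.0.16 in R 4.3.3, without covariates, with Benjamini-Hochberg adjustment over 17600 genes (FDR). Calls needed an FDR below 0.05 and a 2-fold change, the thresholds of the study. The biological coefficient of variation was 0.126. Shares within pairs were compared with exact permutation tests over libraries. Alternatives were RLE size factors, upper-quartile normalisation, library totals, no filter, 10 counts in every library, DESeq2 1.42.0, the likelihood-ratio test, a replicate block, removal of the trend with GC content and exon length (mgcv 1.9.3), with and without the block, and each library left out. Canonical transcript lengths were an alternative chosen after seeing the data.

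The 9 genes and the other lists were chosen with earlier results of these data known. Of each other list the text names up to 4 called genes with the lowest FDR, and all genes of the KDM5 list (KDM5A, KDM5B and KDM5C). CENPA, H3-5, H2BC15, DAXX, SRCAP, EP400, ATM, HELLS, APLF, KLK2 and KRT5 were named in addition, as were pseudogenes and overlapping genes, after their values were seen. Some genes are not reported here. Limits from 3 counts cover counting error alone, because no molecular identifiers are described and fragments need not be independent molecules. Promoters are RefSeq's and coding sequences GENCODE release 44's, both on GRCh38, where all 9 genes lie on the same chromosome and strand as in the files.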

Additional observations from a re-analysis of the deposited data

How the results depend on the processing

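The 9 genes kept their direction under all 14 alternatives except H1-10, which reversed to 0.0724 without replicate 2 of the CPI-455 group and was -0.511 without its replicate 1. Upper-quartile normalisation moved the median log2 fold change of all genes by 0.17 and library totals by -0.19, and no gene of the 9 changed direction under either. H2AZ1 was called higher under all 14, and no other of the 9 was. The count called lower, 1 as reported, was 0 with upper-quartile normalisation and with the length and GC trend removed, with and without the replicate block, where MACROH2A1 was within 2-fold at -0.92, -0.92 and -0.93. It was 2 with library totals and with no filter, where H2AJ was called beside MACROH2A1 at -1.11 and -1.07. It was 1 (range 1 to 1) with each library left out, but without replicate 2 of the CPI-455 group the gene was H2AJ (-1.12) and not MACROH2A1 (-0.99). A fit with 1 library in a group assumes that this library varies like the other group. Genes called higher and lower over the whole table were 2678 to 4031 and 2994 to 4404 with 1 library left out. The cause of these moves was not tested.

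The share of H3-3B moved from 8.27 to 5.37 points on raw counts, and the share of H2AZ1 from 12.1 to 20.1 on raw counts, 9.15 with the trend removed and 7.87 on canonical lengths. The share of MACROH2A1 reversed to 0.352 with the trend removed. With 1 library left out these differences ranged from 6.77 to 9.78, from 11.9 to 12.3 and from -6.04 to -5.28 points. Replicates are numbered 1 and 2 in both groups, but deviations of same-numbered libraries correlated at 0.0400, so the numbers were not taken as a pairing. The replicate block gave 3422 genes called higher and 3745 lower, with 1 of the 9 in each direction. Depth limits H2AJ most, with 35 fragments in the shallowest library.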
